A study of Mus musculus with 12 samples.

Results

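The interaction of nilotinib with interferon-alpha was measured in mouse embryonic fibroblasts (MEFs) as a difference of differences, namely the response to IFNa of cells given AMN107 minus the response to IFNa of cells not given it. Nilotinib, labelled AMN107, blocks the tyrosine kinase activity of ABL proteins. The interaction uses 8 of the 12 Affymetrix expression arrays of the series, 2 in each of 4 groups. The AMN107-IFNa arrays came from cells given AMN107 and then IFNa for 6 h, and the AMN107 arrays from cells given the inhibitor and no interferon. The IFNa arrays came from cells given IFNa for 6 h without the inhibitor, and the DMSO arrays from cells with neither agent, named for the vehicle. The other 4 arrays, from cells given IFNg with or without AMN107, entered only 1 comparison at the end. All cells grew in the same serum-containing medium. The labels name no mouse strain, genotype, embryonic age or passage, and give no dose or duration of AMN107 and no dose of interferon. Their treatment note writes AMN107 RNA, read here as the inhibitor. Paired arrays carry the words biological rep with no mention of separate cultures, so p-values here measure only the spread between these arrays.

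Type I interferons, among them interferon-alpha, bind a receptor made of IFNAR1 and IFNAR2, which carry the kinases TYK2 and JAK1. Among their substrates is STAT2, which joins IRF9 in the complex ISGF3, and ISGF3 binds the interferon-stimulated response element in the promoters of antiviral genes. The response feeds back on itself: IRF7, STAT2 and IRF9 are themselves induced and can amplify it, whereas USP18 and the SOCS proteins restrain receptor signalling. In fibroblasts the induced genes include enzymes and sensors that act on viral RNA, large guanylate-binding GTPases, and the machinery that presents peptides on MHC class I.

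Signals are the deposited linear intensities, and every log2 value is a difference of log2(signal + 8.66). Fold values are these differences taken out of the log with the constant kept in. Where signals are low they are thus smaller than plain ratios of the signals. A negative interaction means a smaller log2 response to IFNa with AMN107 than without it. The same number is the end level difference (AMN107-IFNa minus IFNa) less the baseline difference (AMN107 minus DMSO), so a negative value can go with a higher baseline, a lower end level, or both. A gene is called where the limma p, adjusted by Benjamini-Hochberg over all 12036 tested genes, lay under 0.05.

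One array stood apart. IFNa replicate 2 had a 5′ to 3′ signal ratio of 0.0252 for GAPDH, against 1.07 to 1.16 on the other 7 arrays, and of 0.212 for actin, against 0.676 to 0.830. The 2 IFNa arrays differed by a standard deviation of 0.402 across genes (log2), and the arrays of each other group by 0.118 to 0.133. The main interactions below are therefore also given without that array, in a fit that leaves IFNa replicate 1 alone in its group and assumes that it varies like the others. Of the 11 fibroblast markers, 8 lay above the array median on both arrays of every group. Their summed signal was 6468 to 6683 on AMN107-IFNa arrays, 6607 to 6664 on AMN107 arrays, 9690 to 11234 on IFNa arrays and 9181 to 9287 on DMSO arrays. Of 9 measured leukocyte markers, 3 or 4 lay above the median in any group and their sum was 301 to 345 on the 8 arrays. Epithelium markers summed to 156 to 161 on AMN107-IFNa arrays, 140.4 to 161 on AMN107 arrays, 169 to 201 on IFNa arrays and 217 to 223 on DMSO arrays, with 2 or 3 of 7 above the median. Muscle markers summed to 342 to 346, 341 to 373, 396 to 501 and 524 to 532 in the same order of groups (3 or 4 of 7 above the median), and neuron markers to 281 to 286, 261 to 272, 222 to 260.4 and 184 to 214 (5 of 7). Epithelium and muscle sums were thus lower, and neuron sums higher, on every array with AMN107, while endothelium sums overlapped (83.1 to 104 on the 8 arrays, 1 of 7 above the median). Single genes weighed heavily in these sums. Tubb3 gave 70.6 to 86.7 on arrays with AMN107 and 25.1 to 33.1 on the others. The neuron markers Rbfox3, Elavl3 and Nefl went the other way, lower on every array with AMN107 than on DMSO arrays. Most of the muscle difference lay in Tnnt2 (184 to 228 against 262 to 361). The part of these marker differences in the results was not tested. In RNA from a whole culture, fewer cells of a type and less RNA per cell cannot be told apart.

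Limma called the interaction for 8 genes, all lower (0.0665% of the genes tested), and for 0 higher. They were the guanylate-binding proteins Gbp2, Gbp2b, Gbp3 and Gbp7, the p200-family DNA sensor gene Mndal, the tripartite motif gene Trim30a, the apoptosis-linked Xaf1 and the giant ubiquitin ligase Rnf213. In each of them the AMN107 arrays lay above the DMSO arrays and below the IFNa arrays, and the AMN107-IFNa arrays lay above the AMN107 arrays. The baseline difference was called higher in all 8 (16.0% of all genes) and the end level difference in none (7.57% of all genes higher, 9.90% lower). The interaction subtracts the baseline difference, so genes called lower in it tend to have a higher baseline by construction. The higher baseline of the 8 is thus no separate result. At an unadjusted p under 0.05, 722 genes had a higher and 1218 a lower interaction.

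Gbp2, a GTPase that coats the vacuoles of intracellular pathogens, had signals of 550.4 and 600.0 on AMN107-IFNa arrays, 197 and 289 on AMN107 arrays, 556 and 584 on IFNa arrays, and 22.5 and 23.6 on DMSO arrays. With AMN107 alone it had reached 42.6% of its IFNa signal, whereas the DMSO signal was 4.05% of it. The AMN107-IFNa and IFNa arrays overlapped. With the constant kept in, the response to IFNa was 2.36-fold with AMN107 and 18.2-fold without it. The interaction was -2.95 (SE 0.24, limma adjusted p = 0.0102, and -2.91 without IFNa replicate 2).

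Gbp2b, a close relative of Gbp2, had signals of 286 and 295 on AMN107-IFNa arrays, 130.2 and 164 on AMN107 arrays, 289 and 428 on IFNa arrays, and 22.3 and 17.0 on DMSO arrays. Gbp3 gave 1244 and 1365 on AMN107-IFNa arrays, 580.5 and 740.0 on AMN107 arrays, 1280.2 and 1437 on IFNa arrays, and 132 and 119 on DMSO arrays. Gbp7, which also takes part in host defence at pathogen vacuoles, gave 654 and 697 on AMN107-IFNa arrays, 279.6 and 331 on AMN107 arrays, 544 and 691 on IFNa arrays, and 60.3 and 56.6 on DMSO arrays. All 3 followed the order of Gbp2, with overlapping end levels and an AMN107 signal at 40.9% to 49.4% of the IFNa signal. The interaction was -2.73 for Gbp2b (SE 0.28, limma adjusted p = 0.0227), -2.36 for Gbp3 (SE 0.19, limma adjusted p = 0.0102) and -2.09 for Gbp7 (SE 0.20, limma adjusted p = 0.0196). Without IFNa replicate 2 these were -2.45, -2.28 and -1.92, in the same order.

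Mndal gave 749 and 883 on AMN107-IFNa arrays, 372 and 507 on AMN107 arrays, 864 and 863 on IFNa arrays, and 67.8 and 84.6 on DMSO arrays. Trim30a, a regulator of innate immune signalling, gave 273 and 272 on AMN107-IFNa arrays, 90.8 and 125 on AMN107 arrays, 267 and 354 on IFNa arrays, and 19.4 and 18.8 on DMSO arrays. In both the end levels overlapped, and the response to IFNa was 1.86-fold with AMN107 and 10.3-fold without it for Mndal, and 2.44-fold with and 11.4-fold without it for Trim30a. The interaction was -2.48 for Mndal (SE 0.24, limma adjusted p = 0.0196) and -2.23 for Trim30a (SE 0.24, limma adjusted p = 0.0309), and without IFNa replicate 2 it was -2.48 and -2.03.

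Xaf1, an interferon-induced antagonist of the apoptosis inhibitor XIAP, gave 2188 and 2168 on AMN107-IFNa arrays, 1319 and 1550.4 on AMN107 arrays, 1582 and 1881 on IFNa arrays, and 287 and 286 on DMSO arrays. Rnf213 gave 2069 and 1940.5 on AMN107-IFNa arrays, 1139.7 and 1274 on AMN107 arrays, 1742 and 1789 on IFNa arrays, and 412 and 466 on DMSO arrays. In these 2 genes both AMN107-IFNa arrays lay above both IFNa arrays, by a mean log2 difference of 0.34 in Xaf1 (95% confidence interval 0.07 to 0.60) and 0.18 in Rnf213 (-0.05 to 0.41), neither called. The interaction was -1.95 for Xaf1 (SE 0.16, limma adjusted p = 0.0102) and -1.26 for Rnf213 (SE 0.14, limma adjusted p = 0.0314), and -1.83 and -1.24 without IFNa replicate 2. Another Rnf213 probe set, with a mean signal of 27.2, gave 0.35, whereas the other probe sets of Gbp2, Mndal, Trim30a, Gbp7 and Xaf1 gave -2.72, -2.65, -1.75, -1.82 and -2.21.

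**Figure D1:**
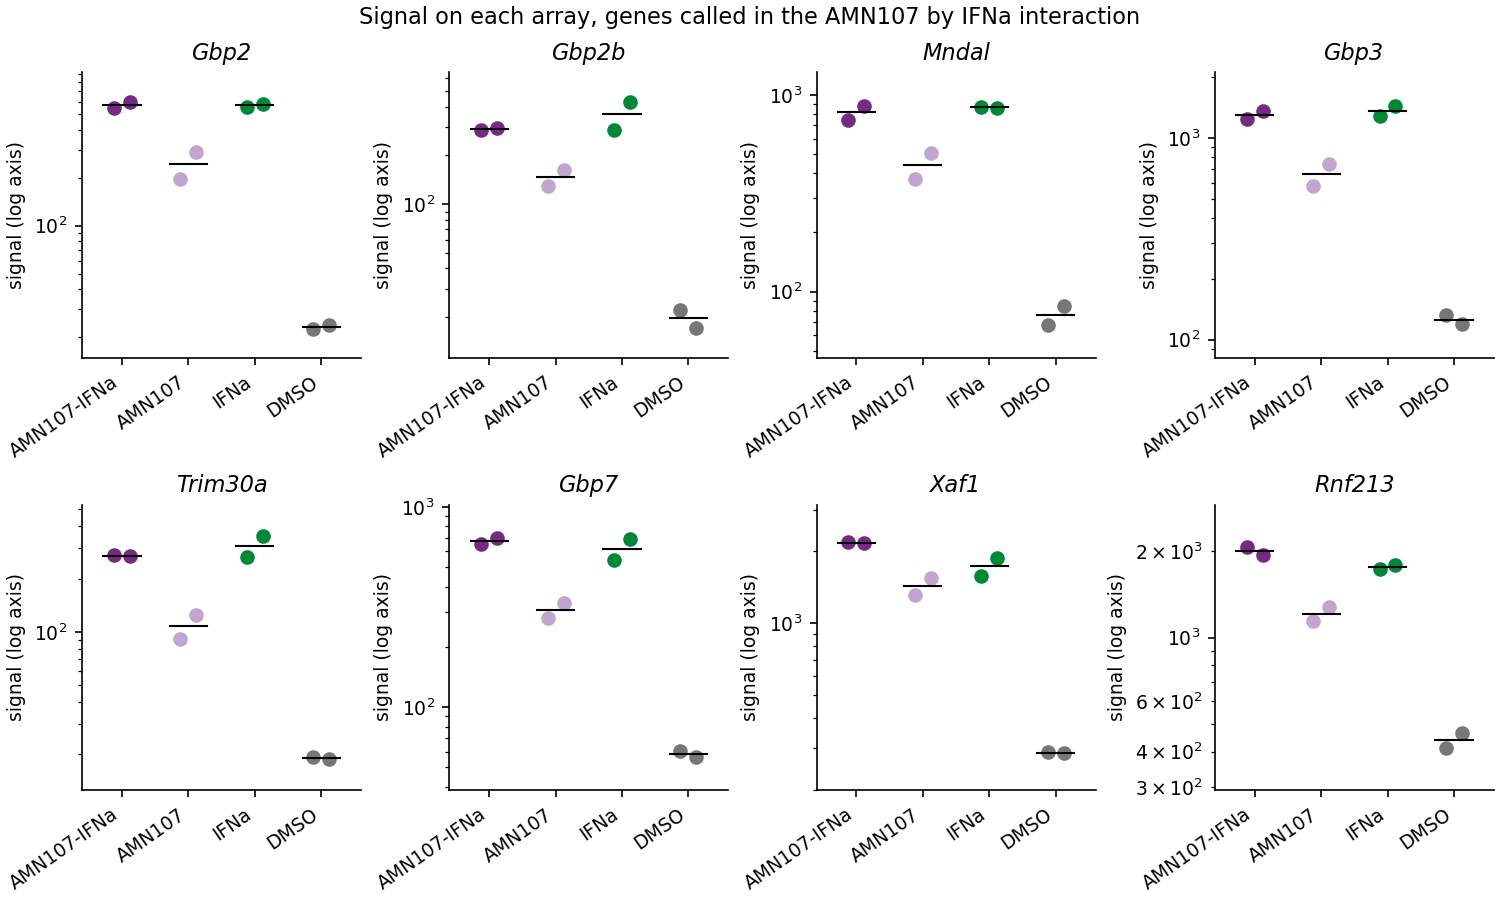
Signal (deposited intensity, log axis) of the 8 genes with a called interaction, 1 point per array and a bar at the mean of 2 arrays, for the AMN107-IFNa, AMN107, IFNa and DMSO groups. In every panel the AMN107 arrays lie between the DMSO and IFNa arrays, and the AMN107-IFNa and IFNa arrays lie close together.

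How many genes were called depended strongly on single arrays. Without IFNa replicate 2 limma called 93 genes lower (0.776% of 11987) and 5 higher (0.0417%), and all 8 genes above were among them. With IFNa replicate 2 as the sole array of its group, 5761 genes were called (without IFNa replicate 1). None was called without DMSO replicate 1, DMSO replicate 2, AMN107-IFNa replicate 1 or AMN107-IFNa replicate 2, 4 without AMN107 replicate 1 and 1 without AMN107 replicate 2. With all 12 arrays in the fit 25 genes were called, all lower, and 7 of the 8 were among them; Rnf213 was not (limma adjusted p = 0.0856). When each probe set was tested on its own, 3 were called.

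The sequence just upstream of these genes was set beside their values, to show what the letters of an interferon-stimulated response element look like in the genes with the interaction. Windows of 300 bases, from 250 before to 50 after the gene's start, were taken from RefSeq (assembly GRCm38.p6) and searched on both strands for GAAANNGAAA, where N is any base; capitals mark the matches. Below are Gbp2 (chr3:142620413-142620712, plus strand), Gbp7 (chr3:142530086-142530385, plus strand), Mndal (chr1:173880138-173880437, minus strand) and Trim30a (chr7:104465144-104465443, minus strand), each with 1 match 59, 53, 36 and 36 bases before the start, in that order. A further pair of genes show the contrast drawn below, since both ended higher with AMN107: Ifit3 (chr19:34583279-34583578, plus strand) with 2 matches, the first 156 bases before the start, and Igtp (chr11:58199306-58199605, plus strand) with 1 match 34 bases before it.
Gbp2: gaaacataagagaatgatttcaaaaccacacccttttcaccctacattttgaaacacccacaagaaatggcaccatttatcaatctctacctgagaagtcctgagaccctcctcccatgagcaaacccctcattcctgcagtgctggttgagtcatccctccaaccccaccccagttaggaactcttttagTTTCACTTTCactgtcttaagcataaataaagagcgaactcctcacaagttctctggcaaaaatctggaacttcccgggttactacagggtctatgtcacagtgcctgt
Gbp7: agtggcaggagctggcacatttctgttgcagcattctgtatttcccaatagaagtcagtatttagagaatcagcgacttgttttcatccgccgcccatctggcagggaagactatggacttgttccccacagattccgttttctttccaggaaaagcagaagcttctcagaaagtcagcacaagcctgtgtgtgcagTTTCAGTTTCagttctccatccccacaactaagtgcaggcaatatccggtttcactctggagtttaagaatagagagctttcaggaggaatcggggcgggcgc
Mndal: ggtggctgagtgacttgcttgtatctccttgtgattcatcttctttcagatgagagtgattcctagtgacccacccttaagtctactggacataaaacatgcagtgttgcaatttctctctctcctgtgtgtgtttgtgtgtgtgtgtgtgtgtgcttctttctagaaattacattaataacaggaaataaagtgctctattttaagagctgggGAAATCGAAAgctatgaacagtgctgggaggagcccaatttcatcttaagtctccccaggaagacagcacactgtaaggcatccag
Trim30a: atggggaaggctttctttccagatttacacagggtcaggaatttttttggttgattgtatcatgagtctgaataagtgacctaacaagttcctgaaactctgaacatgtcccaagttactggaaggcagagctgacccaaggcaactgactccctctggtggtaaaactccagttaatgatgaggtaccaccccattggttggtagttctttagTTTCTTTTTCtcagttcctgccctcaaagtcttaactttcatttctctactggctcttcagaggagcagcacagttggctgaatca
Ifit3: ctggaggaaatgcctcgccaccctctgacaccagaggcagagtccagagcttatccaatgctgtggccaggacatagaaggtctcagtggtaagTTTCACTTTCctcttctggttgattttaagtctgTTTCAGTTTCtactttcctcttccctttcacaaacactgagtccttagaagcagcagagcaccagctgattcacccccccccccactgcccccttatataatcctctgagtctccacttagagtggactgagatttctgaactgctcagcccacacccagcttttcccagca
Igtp: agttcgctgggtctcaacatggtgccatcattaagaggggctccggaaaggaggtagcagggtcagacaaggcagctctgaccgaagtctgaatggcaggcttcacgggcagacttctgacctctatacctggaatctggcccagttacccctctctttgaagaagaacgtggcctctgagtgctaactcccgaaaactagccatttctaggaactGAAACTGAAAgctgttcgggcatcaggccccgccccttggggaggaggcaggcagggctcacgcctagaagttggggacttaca

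A gene was counted where any of its RefSeq windows held the motif. The motif was present in a window of 6 of the 8 genes with a called interaction, and the Xaf1 and Rnf213 windows held no match. Of the tested genes of the core lists described below, 72 had a window, and the motif was present in 31 of these (43.1%). It was present in 338 of 9743 tested genes with a window (3.47%) and in 1131 of all 32851 windows (3.44%). By class, as defined below, it was present in 13 of 24 core genes with a higher baseline and an end level not called, in 9 of 18 with both higher, in 1 of 6 with a lower end level and in 8 of 22 with neither called. A match is a description of the letters and not a measured binding site.

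The pattern of the 8 genes was followed through 7 lists of genes of the interferon response, called core lists here, that hold 113 genes. The lists hold regulators of the pathway, such as Irf3, Pias1 and Ptpn11, as well as induced genes. Of the 113 genes, 98 were on the array as a single gene and 94 passed the filter on low signals. Isg15 was among the 15 not analysed here, and Irf8, Trim25, Aim2 and Psmb8 did not pass the filter. Members could pass through the arrays on which they were induced, so the counts describe the members that passed and support nothing by themselves. The interaction was called lower for 6 of the 94, against 0.0665% of all genes. It was below 0 for 71 of the 94, against 59.2% of all genes, and below -1 for 25, against 0.440% of all genes. Its median was -0.38, against -0.08 over all genes, and -0.31 without IFNa replicate 2, when 73 of the 94 were below 0 against 68.6% of all genes. With quantile normalization, which moved the median of all genes by 0.12, 65 of the 94 were below 0, against 43.3% of all genes.

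The median response to IFNa was 0.52 with AMN107 and 0.92 without it. Without AMN107, limma called 50 of the 94 members higher (1.09% of all genes were). With AMN107 it called none of the 12036 genes in the fit of 8 arrays, whose shared spread includes that of the IFNa arrays (276 genes at an unadjusted p under 0.05). In a fit of the AMN107-IFNa and AMN107 arrays alone it called 53 of 92 tested members higher (0.985% of 11572 genes were) and none lower (0.0605%). That fit was chosen after the data were seen, and limma called 31 genes higher with all 12 arrays in the fit. Of the 94 members, 87 had a response above 0 with AMN107 and 81 without it.

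The baseline was higher with AMN107 in 54 of the 94 members (16.0% of all genes) and lower in 4 (9.80%). The end level was higher in 25 (7.57%) and lower in 9 (9.90%). Counted by arrays, both AMN107 arrays lay above both DMSO arrays in 73 members (43.0% of all genes). Both AMN107-IFNa arrays lay above both IFNa arrays in 43 (25.5%) and below them in 15 (29.9%), and they overlapped in 36. In 28 members the baseline was called higher and the end level was not called (9.53% of all genes). In 23 both were called higher (6.43%). A higher baseline with a lower end level was called in 3, Dhx58, Ifih1 and Oas2 (0.0332%), and a lower end level without a called baseline in 3, Ifi44l, Sp100 and Tapbp (5.72%). Only the end level was called higher in 2, Cgas and Gbp6 (1.14%). Both were lower in 3, Ifi27l2a, Socs3 and Stat3 (4.15%), and only the baseline in 1, Ptpn6 (5.66%). Neither difference was called in 31 (67.3%).

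Among the 25 members with an interaction below -1, 14 had a higher baseline and an end level that was not called, 7 had both higher, 2 had a higher baseline and a lower end level (Dhx58 and Oas2), 1 had only a lower end level (Sp100) and 1 had neither (Ifi204). The interaction is the end level difference less the baseline difference. A value below -1 thus already requires a higher baseline, a lower end level or both, and the split is only a description. The 28 members became 49 with array weights, 44 without AMN107-IFNa replicate 1, 18 without DMSO replicate 1 and 16 without AMN107 replicate 2. The 23 members with both differences higher became 42 without IFNa replicate 2, 38 without IFNa replicate 1, 15 without AMN107 replicate 2, and 8 and 10 without AMN107-IFNa replicates 1 and 2.

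**Figure D2:**
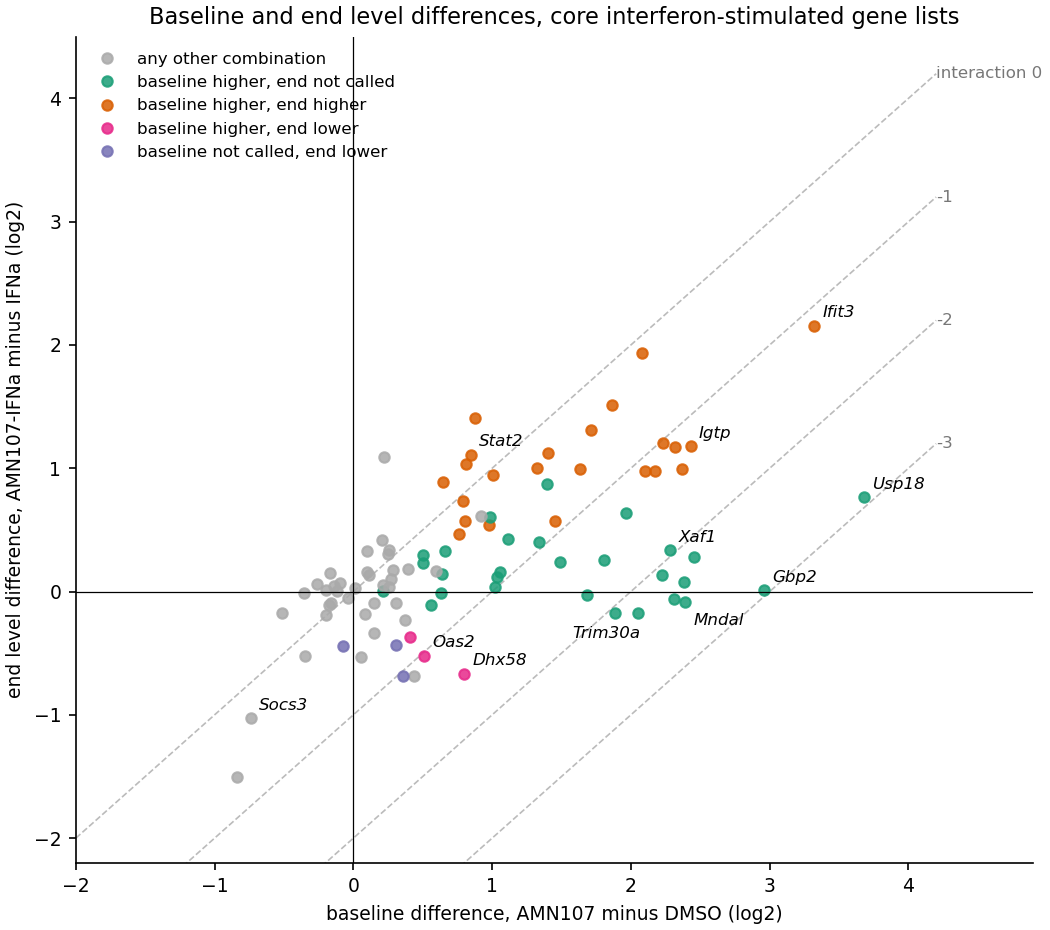
Baseline difference (AMN107 minus DMSO, log2, horizontal axis) against end level difference (AMN107-IFNa minus IFNa, log2, vertical axis), 1 point for each of the 94 tested genes of the core lists, coloured by which of the differences limma called. Dashed lines join points of equal interaction; most points lie to the right of 0 and below the line of interaction 0, and Ifit3, at 3.32 and 2.16, lies highest.

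In the first class the baseline was called higher and the end level was not called. Usp18, the protease that removes ISG15 and also blocks signalling at IFNAR2, had signals of 1920.5 and 1898 on AMN107-IFNa arrays, 986 and 1232 on AMN107 arrays, 832 and 1505 on IFNa arrays, and 68.6 and 88.5 on DMSO arrays. The AMN107 arrays had thus reached 94.9% of the mean IFNa signal with no interferon added, and the DMSO arrays 6.72% of it. The interaction was -2.92 (SE 0.36, limma adjusted p = 0.0562, not called), and -2.49 without IFNa replicate 2 (limma adjusted p = 2.38e-06). Both AMN107-IFNa arrays lay above both IFNa arrays, and the end level difference was 0.77 (95% confidence interval 0.17 to 1.36, limma adjusted p = 0.0798), and 1.19 without IFNa replicate 2.

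Oasl2, an OAS-like protein with antiviral activity, gave 451 and 490.4 on AMN107-IFNa arrays, 272 and 318 on AMN107 arrays, 341 and 576 on IFNa arrays, and 48.6 and 50.4 on DMSO arrays. Parp12, an interferon-induced mono-ADP-ribosyltransferase, gave 1528 and 1496 on AMN107-IFNa arrays, 742 and 951 on AMN107 arrays, 1024 and 1509 on IFNa arrays, and 149 and 143 on DMSO arrays. In both genes the AMN107-IFNa and IFNa arrays overlapped and the AMN107 arrays lay below the IFNa arrays. The interaction was -2.30 for Oasl2 (limma adjusted p = 0.0709) and -2.18 for Parp12 (limma adjusted p = 0.0548), and -1.93 and -1.90 without IFNa replicate 2. Parp9, another ADP-ribosyltransferase, gave -1.55 (limma adjusted p = 0.0709, and -1.35 without IFNa replicate 2), with an AMN107 signal at 69.7% of the IFNa signal.

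Other enzymes and sensors of viral nucleic acids belonged to the same class. The size of the interaction rested in part on IFNa replicate 2 in Oas3, Ddx60 and Ddx58, whereas in Zbp1 it was larger without that array. Oas3, which makes the messenger that activates RNase L, gave 289 and 294 on AMN107-IFNa arrays, 179 and 180.5 on AMN107 arrays, 189 and 462 on IFNa arrays, and 51.4 and 48.5 on DMSO arrays. Its interaction was -1.71 (limma adjusted p = 0.3), against -1.08 without that array (limma adjusted p = 0.000138). Ddx60, a helicase of the antiviral response, gave -2.06 (limma adjusted p = 0.3) and -1.40 without that array, and another Ddx60 probe set gave -1.06 and -0.13. Ddx58, which encodes the RNA sensor RIG-I, gave -0.90 and -0.64, and the nucleic acid sensor Zbp1 -0.99 and -1.36; a second Zbp1 probe set gave 0.46. Eif2ak2, the kinase PKR that halts translation on double-stranded RNA, had signals of 445 and 459.7 on AMN107-IFNa arrays, 319 and 342 on AMN107 arrays, 205.0 and 403 on IFNa arrays, and 64.4 and 94.0 on DMSO arrays. Its interaction was -1.33, and ran from -1.80 to -0.86 with a single array left out.

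In the second class the end level was higher as well. Ifit3, a partner of IFIT1 in binding viral RNA, gave 1179 and 1207 on AMN107-IFNa arrays, 297 and 411 on AMN107 arrays, 241 and 282 on IFNa arrays, and 30.1 and 24.5 on DMSO arrays. The AMN107 arrays without interferon lay above both IFNa arrays, and the AMN107-IFNa arrays lay 4.46-fold above the IFNa arrays (limma adjusted p = 0.000568). On the log2 scale the interaction was -1.16 (SE 0.24, limma adjusted p = 0.3, and -1.05 without IFNa replicate 2). On the linear scale IFNa added a mean signal of 839 with AMN107 and of 234 without it, so the sign of the interaction turned with the scale.

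The GTPases Igtp, Irgm2 and Irgm1 of the immunity-related family, which act on pathogen vacuoles, gave the same picture. Igtp gave 934 and 900.0 on AMN107-IFNa arrays, 426 and 524 on AMN107 arrays, 414 and 386 on IFNa arrays, and 83.3 and 78.0 on DMSO arrays. Irgm2 gave 321 and 316 on AMN107-IFNa arrays, 155 and 198 on AMN107 arrays, 149.7 and 165 on IFNa arrays, and 31.5 and 32.6 on DMSO arrays. For both, AMN107 alone reached or passed the mean IFNa signal, and the end level was 2.27-fold and 1.98-fold higher with AMN107 (limma adjusted p = 0.00163 and 0.00355). Their interactions were -1.25 and -1.19 (limma adjusted p = 0.0762 and 0.102), and -1.30 and -1.13 without IFNa replicate 2. Irgm1 gave -1.03, and -0.65 without IFNa replicate 2, with an end level 2.31-fold higher (limma adjusted p = 0.0116). The linear signal gained with IFNa was larger with AMN107 in all 3 (442 against 319 in Igtp, 142 against 125 in Irgm2 and 290.2 against 244 in Irgm1).

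Herc6, the ligase that attaches ISG15 to proteins in mice, gave 253 and 323 on AMN107-IFNa arrays, 139.8 and 178 on AMN107 arrays, 129 and 150.3 on IFNa arrays, and 22.9 and 24.4 on DMSO arrays. Its interaction was -1.37 (limma adjusted p = 0.136, and -1.27 without IFNa replicate 2); of 3 further probe sets, 2 gave 0.49 and 0.36 and 1 gave -0.67. Parp14, an ADP-ribosyltransferase, had an end level 1.96-fold higher and an interaction of -1.13 (limma adjusted p = 0.197, and -1.05 without IFNa replicate 2). Rsad2, Ifit1 and Mx2 were chosen after their values were seen, as members whose end level was higher with a smaller or opposite interaction. Rsad2, or viperin, gave 3266 and 3644 on AMN107-IFNa arrays, 1424 and 1958 on AMN107 arrays, 960.4 and 834 on IFNa arrays, and 421 and 356 on DMSO arrays, an interaction of -0.15 (0.078 with quantile normalization, and -0.25 without IFNa replicate 2). Ifit1 gave -0.35 and the antiviral GTPase Mx2 0.53, and -0.27 and 0.57 without that array, with end levels 2.86-fold and 2.65-fold higher. In these 3 genes every AMN107-IFNa array lay above every array of the other groups. Over all 94 members 55 were below 0 on the linear scale, against 59.5% of all genes.

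A lower end level was called in 9 of the 94 core members, near the share of all genes (9.90%). Dhx58 encodes LGP2, a relative of RIG-I that tunes RNA sensing, and gave 158 and 155 on AMN107-IFNa arrays, 81.7 and 102 on AMN107 arrays, 241 and 267 on IFNa arrays, and 42.6 and 55.8 on DMSO arrays. The AMN107-IFNa arrays lay below both IFNa arrays (1.59-fold, limma adjusted p = 0.0206), although the AMN107 arrays lay above both DMSO arrays (1.74-fold, limma adjusted p = 0.00832). Its interaction was -1.47 (SE 0.21, limma adjusted p = 0.0793, and -1.40 without IFNa replicate 2), while 2 dimmer probe sets gave 0.04 and -0.03.

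Oas2, another oligoadenylate synthetase, and Ifih1, which encodes the long double-stranded RNA sensor MDA5, are named because their class held only 3 members. Oas2 gave 193 and 194 on AMN107-IFNa arrays, 127 and 143 on AMN107 arrays, 284 and 278 on IFNa arrays, and 92.6 and 91.8 on DMSO arrays. Ifih1 gave 1069.5 and 1061 on AMN107-IFNa arrays, 787 and 876 on AMN107 arrays, 1318 and 1433 on IFNa arrays, and 626 and 621 on DMSO arrays. In both, the 4 groups did not overlap: AMN107-IFNa lay below IFNa and above AMN107, and AMN107 lay above DMSO. The end level was 1.43-fold lower in Oas2 and 1.29-fold lower in Ifih1 (limma adjusted p = 0.0122 and 0.0329). Their interactions were -1.03 and -0.77 (limma adjusted p = 0.0709 and 0.168), and -1.05 and -0.71 without IFNa replicate 2. Sp100, a nuclear body protein, and Ifi44l, both named for the same reason, gave -1.04 and -0.74 with end levels 1.61-fold and 1.35-fold lower (limma adjusted p = 0.0209 and 0.0228), and -1.01 and -0.63 without that array.

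**Figure D3:**
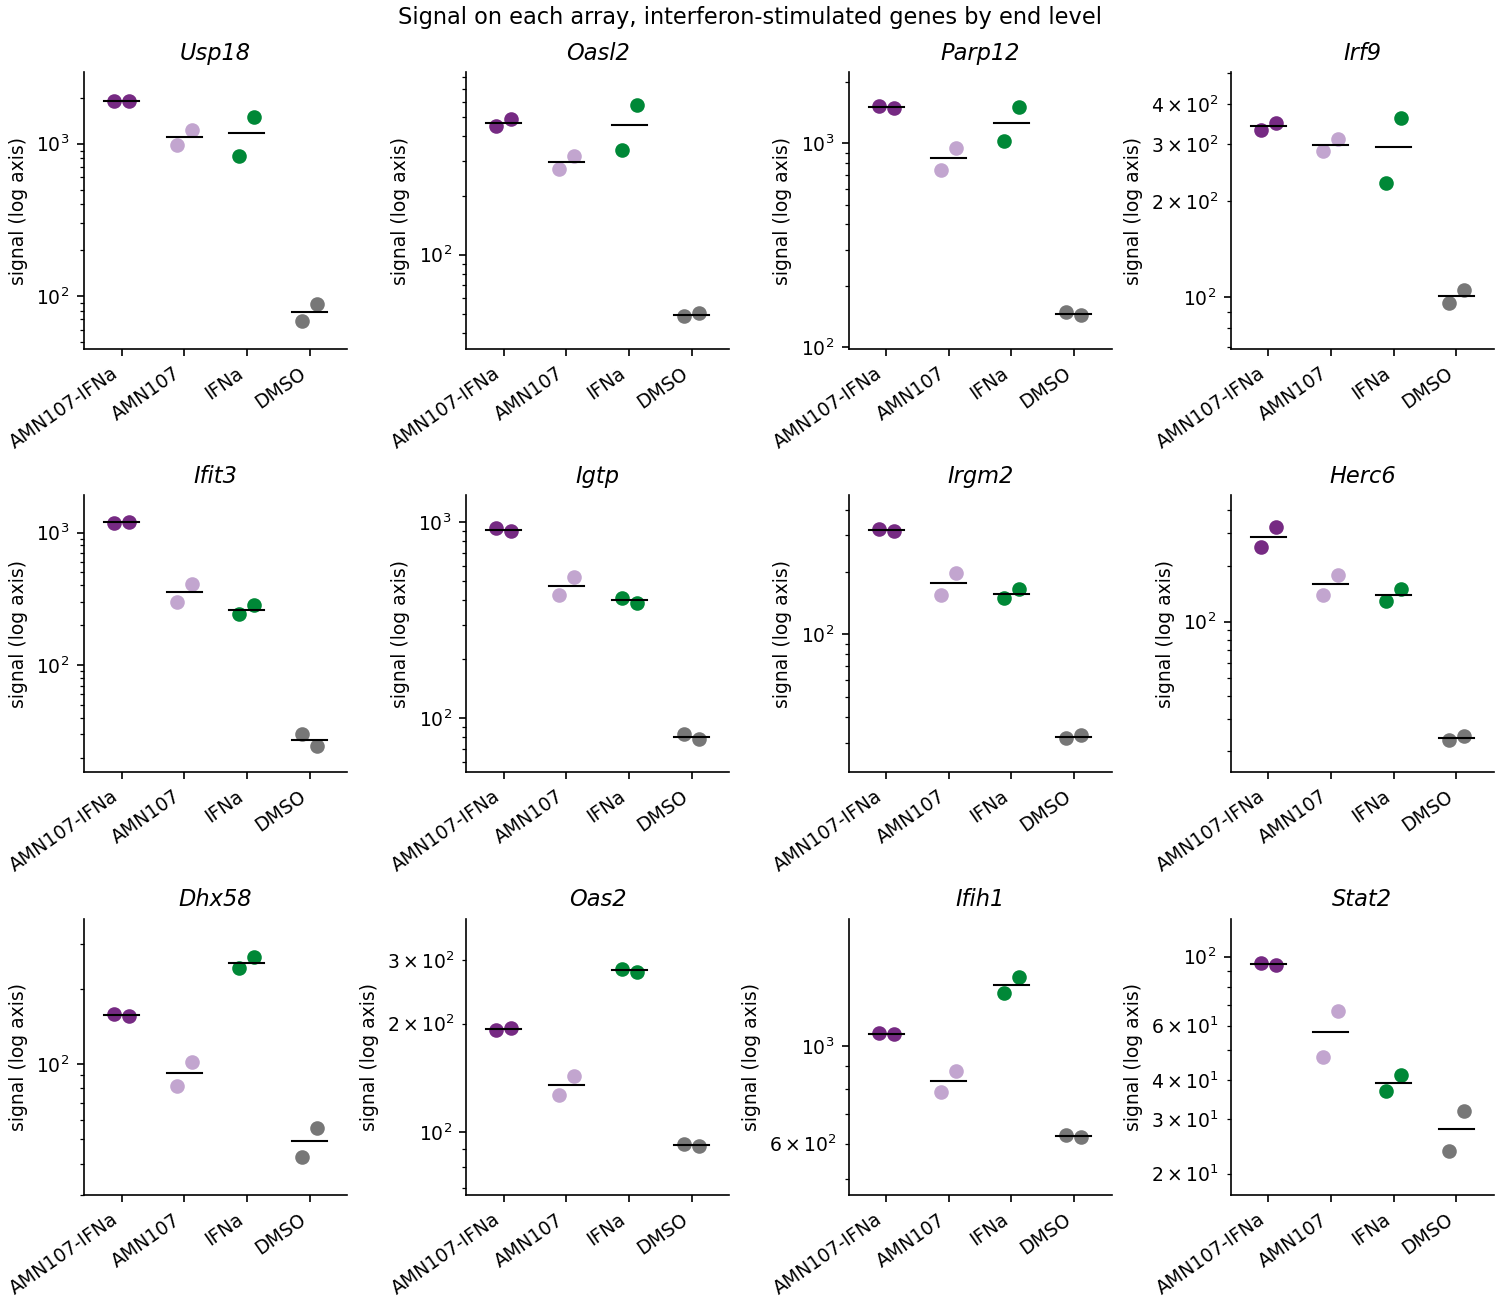
Signal (deposited intensity, log axis) of 12 interferon-stimulated genes, 1 point per array and a bar at the mean of 2 arrays, for the AMN107-IFNa, AMN107, IFNa and DMSO groups. The top 4 genes have end levels that were not called different, the middle 4 have higher end levels with AMN107, the first 3 of the bottom row have lower ones, and Stat2 has an interaction near 0 with the AMN107-IFNa arrays highest.

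The transcription factors of the pathway were mixed: 3 of the 9 tested members had an interaction below 0, with a median of 0.07 (4 of 9 and 0.010 without IFNa replicate 2). Irf9, the DNA-binding subunit of ISGF3, had signals of 333 and 350.4 on AMN107-IFNa arrays, 286 and 312 on AMN107 arrays, 227 and 363 on IFNa arrays, and 95.7 and 106 on DMSO arrays. IFNa added little to Irf9 in cells given AMN107 (0.19, limma adjusted p = 0.487 in the fit of the 2 groups alone) and 1.44 without it (limma adjusted p = 0.016), an interaction of -1.25 (limma adjusted p = 0.3, and -0.92 without IFNa replicate 2). Irf7, which amplifies the response, gave 786 and 779 on AMN107-IFNa arrays, 405 and 523 on AMN107 arrays, 542 and 279 on IFNa arrays, and 136 and 149 on DMSO arrays. Its interaction was -0.64 with all arrays and -1.11 without IFNa replicate 2, and its end level was higher with AMN107 (1.99-fold, limma adjusted p = 0.0429). The Irf7 end level difference was 0.99 with all arrays and 0.52 without that array.

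Stat2 gave 95.2 and 94.0 on AMN107-IFNa arrays, 47.6 and 66.8 on AMN107 arrays, 36.9 and 41.6 on IFNa arrays, and 23.7 and 31.8 on DMSO arrays. Every AMN107 array lay above every IFNa array, the end level was 2.16-fold higher with AMN107 (limma adjusted p = 0.00543), and the interaction was 0.26 (95% confidence interval -0.26 to 0.79, and 0.33 without IFNa replicate 2). Irf1, a factor more strongly tied to interferon-gamma, gave 304 and 292 on AMN107-IFNa arrays, 222 and 213 on AMN107 arrays, 242 and 303 on IFNa arrays, and 184 and 218 on DMSO arrays. Its interaction was 0.02 (95% confidence interval -0.42 to 0.47), -0.063 with median centring and 0.18 without IFNa replicate 2.

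Of the 9 feedback inhibitors 4 were below 0, and Usp18 stood alone in size, with a list median of 0.06 (5 of 9 below 0 and a median of -0.047 without IFNa replicate 2). Socs1, an inhibitor of the Janus kinases, gave 77.2 and 78.4 on AMN107-IFNa arrays, 74.6 and 72.5 on AMN107 arrays, 44.3 and 24.8 on IFNa arrays, and 33.0 and 43.9 on DMSO arrays. Both AMN107 groups lay above both groups without it, and the interaction was 0.23 (-0.11 without IFNa replicate 2). Socs3 gave 53.0 and 57.6 on AMN107-IFNa arrays, 55.3 and 56.7 on AMN107 arrays, 106 and 139 on IFNa arrays, and 98.8 and 99.9 on DMSO arrays, so both AMN107 groups lay below both others. Its interaction was -0.29 (-0.11 without IFNa replicate 2).

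Receptor and kinase transcripts showed small interactions, 6 of 7 below 0 with a median of -0.25 (-0.14 without IFNa replicate 2). Ifnar1 gave -0.25 (95% confidence interval -0.54 to 0.03) and Ifnar2 -0.18 (-0.48 to 0.12; 0.048 with quantile normalization), and -0.23 and -0.14 without that array, with baselines 1.22-fold and 1.32-fold higher with AMN107 (limma adjusted p = 0.048 and 0.0187). Tyk2 gave 0.04, -0.047 with median centring and -0.045 without IFNa replicate 2. Jak1 gave 204 and 208 on AMN107-IFNa arrays, 187 and 193 on AMN107 arrays, 158 and 467 on IFNa arrays, and 123 and 127 on DMSO arrays. Its interaction of -0.96 became -0.21 without IFNa replicate 2. Of 2 other Jak1 probe sets, 1 gave -1.03, and -0.97 without that array, and the other -0.16 and -0.18. Ifngr1, a subunit of the interferon-gamma receptor, gave -0.46 (limma adjusted p = 0.3, and -0.39 without that array), and its end level was 1.46-fold lower with AMN107 (limma adjusted p = 0.0203). Of 10 interferon genes, 2 passed the filter, with interactions of 0.04 and 0.30, and Ifnb1 did not.

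**Figure D4:**
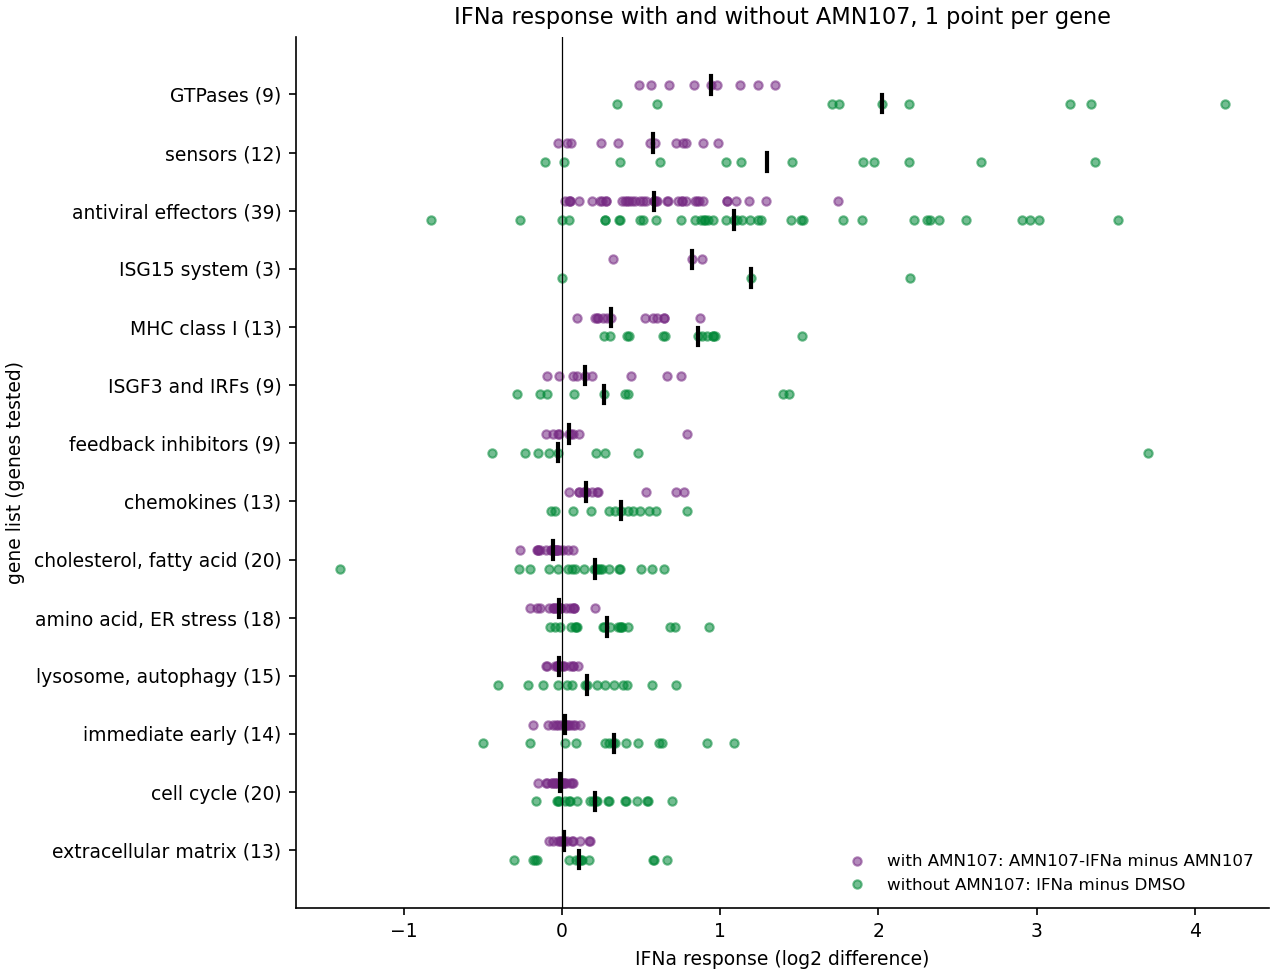
Response to IFNa (log2 difference) with AMN107 (AMN107-IFNa minus AMN107, upper of each pair) and without it (IFNa minus DMSO, lower), 1 point per tested gene and a bar at the median, for 14 lists with the number of tested genes. The GTPases have medians of 0.94 and 2.02, whereas the medians of the 6 lists below the chemokines lie between -0.05 and 0.02 with AMN107 and between 0.11 and 0.33 without it.

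Among the lists of effectors, the interferon-inducible GTPases had the lowest median interaction, at -1.19 (-1.13 without IFNa replicate 2). Of the 9 tested GTPases 8 were below 0, 7 had a higher baseline and 5 a higher end level, and in the fit of the AMN107-IFNa and AMN107 arrays alone all 9 rose with IFNa. Sensors of nucleic acids had a median of -0.84 (-0.67 without that array), with 10 of 12 below 0, 7 baselines higher, 1 end level higher and 2 lower. Antiviral effectors had a median of -0.49 (-0.39), with 32 of 39 below 0, 25 baselines higher and 1 lower, and 13 end levels higher and 4 lower. With AMN107, 26 of 37 antiviral effectors and 7 of 12 sensors rose with IFNa in the fit of those 2 groups alone. Of all genes, 59.2% were below 0, 16.0% had a higher baseline and 9.80% a lower one. The end level was higher in 7.57% of all genes and lower in 9.90%, and 0.985% rose in the fit of 2 groups. The 1 higher end level among sensors and the 4 lower ones among antiviral effectors thus lay near the share of all genes.

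MHC class I presentation showed a smaller but even difference, 12 of 13 tested members below 0 with a median of -0.33 (-0.32 without IFNa replicate 2). The heavy chain gene H2-K1 gave 4173 and 4048 on AMN107-IFNa arrays, 3456 and 3566 on AMN107 arrays, 2628 and 3564 on IFNa arrays, and 1551 and 1691 on DMSO arrays. Its interaction was -0.69 (limma adjusted p = 0.3, and -0.47 without that array). Tap1, a subunit of the peptide transporter, gave 187 and 179 on AMN107-IFNa arrays, 88.6 and 104 on AMN107 arrays, 195 and 175 on IFNa arrays, and 59.2 and 58.6 on DMSO arrays, an interaction of -0.65 (-0.72). H2-K1 was brightest with both agents, whereas the Tap1 end levels overlapped. H2-D1 gave -0.44 (-0.32) and the peptide-trimming enzyme Erap1 -0.67 (-0.51), none of them called, and Tapbp, the chaperone that holds class I at the transporter, gave -0.37 (-0.25) with an end level 1.36-fold lower. A dimmer Tapbp probe set, with a mean signal of 43.8, went the other way. It gave 0.20 (0.14), with an end level difference of 0.74. Probes of class I heavy chains can bind transcripts of related loci.

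Of the chemokines and cytokines 8 of 13 were below 0, with a median of -0.02 (10 of 13 and -0.099 without IFNa replicate 2). Cxcl10, a T cell attractant, gave 2781 and 3080.3 on AMN107-IFNa arrays, 1617 and 1935 on AMN107 arrays, 1422 and 1149.6 on IFNa arrays, and 967 and 947 on DMSO arrays. Its end level was 2.28-fold higher with AMN107 (limma adjusted p = 0.00187) and its interaction 0.31 (0.16 without IFNa replicate 2). Cxcl11, which shares its receptor, gave -0.37, and Cxcl12, a homing chemokine of stromal cells, -0.45, and -0.36 and -0.40 without that array.

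Most members of the lists outside the interferon response were also below 0, as were 59.2% of all genes. That share of all genes was 68.6% without IFNa replicate 2 and 43.3% with quantile normalization. The counts were 16 of 20 in cholesterol and fatty acid synthesis (median -0.26), 16 of 18 in the amino acid and ER stress response (-0.25), 12 of 14 immediate early genes (-0.36), 17 of 20 cell cycle genes (-0.21), 11 of 15 lysosome and autophagy genes (-0.18) and 9 of 13 matrix genes (-0.12). Without IFNa replicate 2 the medians were -0.23, -0.22, -0.25, -0.10, -0.15 and -0.091 in that order. With all 8 arrays none of these members had a called interaction or a called IFNa response, with or without AMN107. Chosen after their values were seen, Herpud1, Cth and Trib3 of the amino acid and ER stress response gave -0.63, -0.56 and -0.53 without IFNa replicate 2. Dhcr7 of cholesterol synthesis gave -0.62 without it. Fdps, an enzyme of the mevalonate pathway, gave 512 and 483 on AMN107-IFNa arrays, 527 and 491 on AMN107 arrays, 1789.9 and 220.3 on IFNa arrays, and 1776 and 1601 on DMSO arrays. Its interaction of 1.37, the highest of all tested genes, became -0.12 without IFNa replicate 2. Myc gave -0.98 and -0.25 without that array, the ERK phosphatase gene Dusp6 -0.87 and -0.23, the helicase subunit Mcm6 -0.64 and -0.18, and Msmo1 of sterol synthesis -0.70 and -0.33. Herpud1, of the ER stress response, kept more of its value (-0.82 and -0.63), but another Herpud1 probe set, with a mean signal of 155, gave -0.027 and 0.0036. Cth of cysteine synthesis (-0.94 and -0.56) and the collagen Col3a1 (-0.46 and -0.37) also kept more of their values.

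The drug's named targets had transcript interactions that were not called: Abl1 gave -0.00 (95% confidence interval -0.31 to 0.30; 0.22 with quantile normalization) and Abl2 -0.13 (-0.47 to 0.21; 0.060 with quantile normalization), and -0.03 and -0.06 without IFNa replicate 2. Transcript levels do not measure kinase activity.

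No gene had a called positive interaction. Of the genes of smallest p on that side, Gpihbp1 gave 0.70 (limma adjusted p = 0.194), Sfrp1, a secreted WNT antagonist, 0.77 (0.252), the protease Htra3 0.61 (0.3) and Apod 0.54 (0.3), and 0.63, 0.66, 0.58 and 0.56 without IFNa replicate 2. Sfrp1 gave 55.5 and 56.0 on AMN107-IFNa arrays, 53.1 and 54.2 on AMN107 arrays, 57.2 and 47.9 on IFNa arrays, and 88.2 and 96.7 on DMSO arrays. The DMSO arrays stood above the other 3 groups, and other Sfrp1 probe sets gave -0.01 to 0.12.

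**Figure D5:**
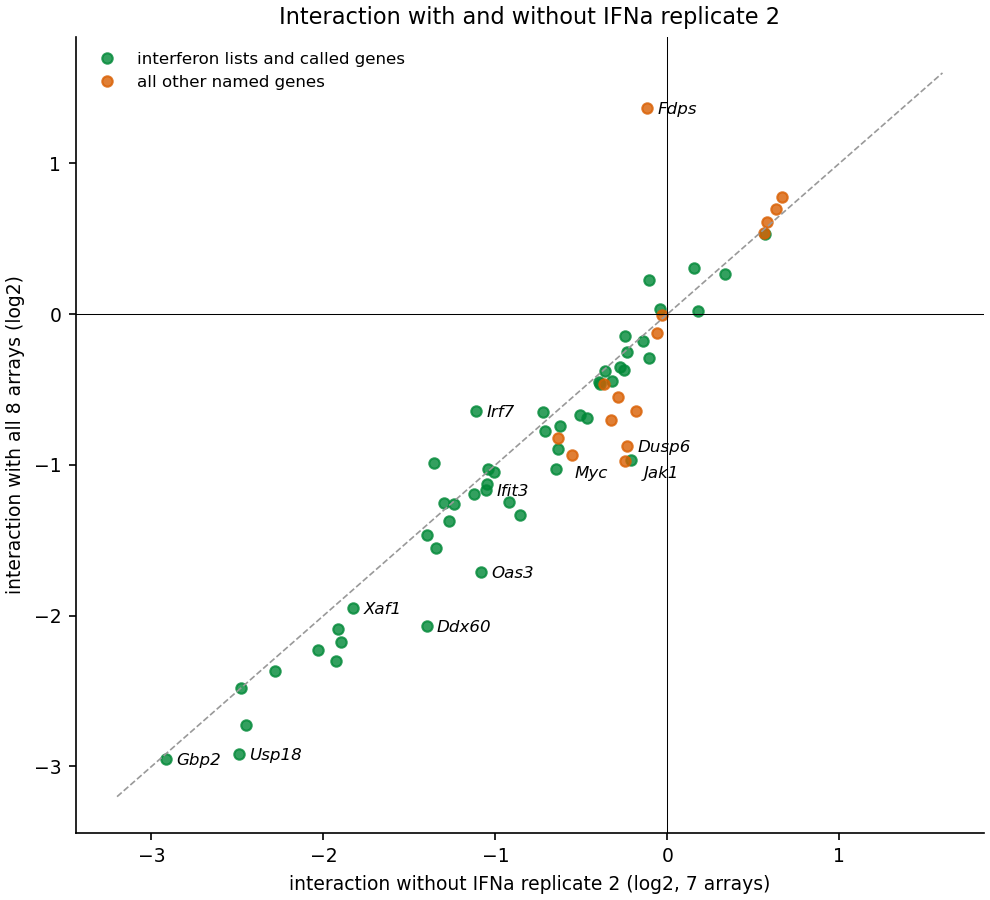
Interaction (log2) of the named genes with IFNa replicate 2 left out (horizontal axis, 7 arrays) against all 8 arrays (vertical axis), coloured by membership of the interferon lists; the dashed line marks equality. Gbp2 and Xaf1 lie near the line, Ddx60 and Oas3 were larger with that array, and Fdps changed sign.

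The AMN107 difference at the end level was then compared between the interferons, as AMN107-IFNa minus IFNa less AMN107-IFNg minus IFNg, in which the AMN107 and DMSO arrays drop out. Limma called 4 of 12000 genes higher (0.0333%) and 8 lower (0.0667%). Ifit3 gave 1179 and 1207 on AMN107-IFNa arrays and 241 and 282 on IFNa arrays, and 2125 and 1953 on AMN107-IFNg arrays and 162 and 166 on IFNg arrays. AMN107 thus went with a higher Ifit3 level under both interferons, and with a larger difference under IFNg (-1.41, limma adjusted p = 0.0354). Dhx58 gave 186 and 168 on AMN107-IFNg arrays and 102 and 80.9 on IFNg arrays, so its end level was lower with AMN107 under IFNa and higher under IFNg (-1.57, limma adjusted p = 0.0354). Oas2 (-1.30), Ifih1 (-1.20), Sp100 (-1.17) and Ifi44l (-2.38) were likewise called lower, as were Trim30a (-1.70) and Trim30d (-1.62).

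Igtp was called higher (1.21, limma adjusted p = 0.0338): its signals were 3294 and 3194 on AMN107-IFNg arrays and 3399 and 3238 on IFNg arrays, which overlapped, whereas AMN107-IFNa lay above IFNa. The other 3 called higher were BC023105 (2.04, not tested among the 8 arrays of the interaction), Srsf5 (1.10) and Laptm4a (0.98), outside the interferon lists and named because so few were called. Of the 8 genes of the IFNa interaction, Trim30a was among these 12 calls. The count was 936 without IFNa replicate 2 and 4689 without IFNa replicate 1. It was 0 without either IFNg array or either AMN107-IFNa array, 2 without AMN107-IFNg replicate 1 and 1 without AMN107-IFNg replicate 2.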

How the data were processed

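Affymetrix arrays were made from total RNA of mouse embryonic fibroblasts. The deposited values are linear signal intensities, made with MAS5 per the submitters' processing notes; the version and settings are not given in the sources used here. The array holds 45101 probe sets and 64 of these are controls. GEO's annotation pairs 34945 with a single gene, 932 with more than 1 and 9160 with no gene. For 34741 probe sets the symbol was checked through RefSeq gene IDs (GRCm38.p6), and 0 changed. Probe sets above the array median on at least 2 of the 8 arrays were kept (23994, of which 20962 had 1 gene). Each gene took its probe set of highest mean, which left 12036 genes. The interaction and its components were fitted with limma 3.58.1 in R 4.3.3 on log2(signal + 8.66), the constant being the mean of the arrays' 25th percentiles, with a mean per group and eBayes with trend. Tests were two-sided, with Benjamini-Hochberg adjustment over all tested genes and a threshold of 0.05. The comparison with IFNg used the 4 interferon groups (12000 genes, constant 8.57). The fit was tested on simulated data.

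The members and the gene lists were chosen with earlier results of these data known. Genes are named by rule. The rule took those called and, where fewer were called, the 6 of smallest p on each side. It also took the members of largest interaction in each list and a fixed set of pathway genes. Others, Eif2ak2 and Parp14 among them, were chosen after their values were seen. Not every gene that met the rule is described, and on the higher side Cdiptos (0.58) and Crtac1 (0.56) were left out. Alternatives were the constant, the filter, quantile normalization, median centring, single probe sets, all 12 arrays, array weights, no trend, a replicate block and leaving out each array. The number of arrays limits the precision. Scan dates and array batches were not analysed here.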

Additional observations from a re-analysis of the deposited data

Results flagged for a closer look

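The test of the difference between the IFNa responses passed for 8 genes, so each is listed with its interaction (log2, response with AMN107 minus response without it; limma, adjusted p between 0.0102 and 0.0314). The values were -2.95 for Gbp2, -2.73 for Gbp2b, -2.48 for Mndal, -2.36 for Gbp3, -2.23 for Trim30a, -2.09 for Gbp7, -1.95 for Xaf1 and -1.26 for Rnf213. The test of the AMN107 difference under IFNa against that under IFNg passed for 12 genes, 4 higher and 8 lower. No other result met a rule for closer attention; groups of 2 arrays are too small for a test of outlying samples.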

How the results depend on the processing

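The 8 calls of the AMN107 by IFNa interaction became 3 with each probe set on its own, 25 with all 12 arrays, 20 with array weights and 13 with a replicate block, and 0 to 5761 when 1 array was left out. For the IFNa response with AMN107 the count of 0 became 1 with no filter, 1 with quantile normalization, 31 with 12 arrays, 128 with array weights and 121 in the fit of 2 groups alone, and 0 to 122 with 1 array left out. For the IFNa response without AMN107 the count of 146 became 229 with median centring, 2140 with 12 arrays, 74 with array weights and 32 with 2 groups alone (40 to 7107 with 1 array left out). For the AMN107 difference with IFNa (end level) the 2102 calls became 3447 with each probe set, 3173 with 12 arrays, 798 with array weights and 82 with 2 groups alone (230 to 6180). For the AMN107 difference without IFNa (baseline) the 3105 calls became 5046 with each probe set, 6802 with array weights and 6683 with 2 groups alone (562 to 6684). The 28 core members with only a higher baseline became 49 with array weights (16 to 44), and those with both higher ranged from 8 to 42. The 12 calls of the IFNa minus IFNg in the AMN107 difference became 0 with each probe set, 56 with 12 arrays, 31 with array weights and 0 with a replicate block (0 to 4689). The cause was not tested.

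The replicate numbers were not taken as pairing the samples, since the labels name no shared batch and not every correlation between the deviations of same-numbered arrays was over 0.1. Over 6 pairs of groups it ran from -0.11 to 0.32, with 3 over 0.1, all 3 among the AMN107-IFNa, AMN107 and IFNa groups.

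Of 65 named genes 8 changed sign under an alternative, none of them among the 8 called. Quantile normalization gave 0.048 for Ifnar2, 0.22 for Abl1, 0.060 for Abl2 and 0.078 for Rsad2. Median centring gave -0.063 for Irf1 and -0.047 for Tyk2. With 1 array left out, values ranged from -0.044 to 0.034 for Abl1, -0.14 to 0.18 for Irf1, -0.11 to 0.56 for Socs1, -0.045 to 0.12 for Tyk2, -0.12 to 2.86 for Fdps and -0.38 to 0.082 for Rsad2. Of the genes called, by limma adjusted p, Gbp2b (0.0606) and Trim30a (0.0827) missed the threshold with a constant of 32 and Rnf213 (0.0582) with quantile normalization. With 2 arrays a group and 1 of them with a low 5′ signal, the number of calls is uncertain; signals near background limit the dim genes.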

Other observations

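Some genes outside the core lists were called only without IFNa replicate 2, and are given as values chosen after they were seen. In the fit without IFNa replicate 2, which leaves 1 IFNa array, the interaction was -1.37 for Nmi, -1.35 for Trim12c, -1.29 for Helz2 and -1.18 for Lgals3bp. It was -1.18 for Samd9l, -1.14 for Ifi202b, -0.96 for Lgals9 and -0.70 for Gch1, the rate-limiting enzyme of tetrahydrobiopterin synthesis. Without that array another Trim12c probe set gave 0.52, the opposite sign, and another of Gch1 gave -0.45. On the higher side that fit gave Igfbp5 (0.59), Add3 (0.63), Nrxn3 (0.64), Sfrp1 (0.66) and the nuclear noncoding RNA Malat1 (0.78). Other Add3 probe sets gave -0.085 to -0.0048 without that array, and other Malat1 probe sets -0.096 to 1.11. Other probe sets of Nrxn3 and Sfrp1 gave -0.30 to 0.20 and -0.16 to 0.060, and another of Igfbp5 gave 0.011. Genes called lower there tend to have a higher baseline by construction, since the baseline difference is subtracted in the interaction. A higher baseline in them is thus no separate result.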
